A study of Mus musculus with 3 samples.

Results

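The 10 genes described here encode parts of the immunoproteasome and of the machinery that trims peptides and loads them on MHC class I molecules. They are Tap1, Tap2, Tapbp, Tapbpl, Psmb8, Psmb9, Psmb10, Psme1, Psme2 and Erap1. They were grouped by their known roles, though with earlier results of these data known. Each symbol matched 1 of the 55536 annotated genes, of which 22028 are protein-coding. The study sequenced total RNA, depleted of ribosomal RNA, from nuclei of C57BL/6J mouse macrophages grown from bone marrow (BMDM). The labels call the fraction nucleus in one field and nucleoplasm in another. Every culture had received lipid A, the Toll-like receptor 4 agonist of bacterial lipopolysaccharide, at 100 ng/ml for 12 h, then a washout of 12 h, then lipid A at 100 ng/ml for a further 15 min. There is 1 group of 3 libraries, replicates 1, 2 and 3, with the same donor identifier, and sex and age were not recorded. Replicate 2 was made from 500 ng of RNA and each of the others from 1 µg. No untreated group is analysed here, so the values are levels in these nuclei and carry no direction of response to lipid A.

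Proteasomes cut proteins into peptides. Cells exposed to interferon, and many immune cells at rest, replace the catalytic subunits Psmb5, Psmb6 and Psmb7 of the 20S core with Psmb8, Psmb9 and Psmb10, which favours peptide ends that fit MHC class I. The Psme1 and Psme2 proteins form the PA28 ring that opens the core, the Tap1 and Tap2 proteins form the pump that carries peptides into the endoplasmic reticulum, Erap1 trims them there, and tapasin (Tapbp) and its homologue TAPBPR (Tapbpl) help to load and select them.

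The libraries held 19312032 to 23826101 expected counts over annotated genes. Of 12 macrophage markers, 10 were detected (a TPM, transcripts-per-million, of at least 1 in all 3 libraries), with Cd163 and Cx3cr1 the exceptions, and their summed TPM ranged from 4138 to 5400. Of 38 markers in 7 lists for other blood and stromal cells, 0 were detected, and the summed TPM of a list lay between 0 and 3.42. Protein-coding genes took 23.6%, 27.9% and 22.5% of TPM in replicates 1, 2 and 3, so a given TPM stands for a smaller part of the coding RNA in replicate 2 than in the others.

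All 10 genes were detected. The same threshold was passed by 42.8% of protein-coding genes. The median log2(TPM + 1) of the 10 was 5.96 ± 0.24 (SD, n = 3), beside 3.25 ± 0.10 over the 9434 detected protein-coding genes. In bulk RNA, a lower number of expressing cells and less RNA per cell cannot be told apart. The labels do not say that each replicate is another mouse, and any p-value below therefore reflects only how these 3 libraries vary.

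The pump and the genes for tapasin and its homologue held both the highest and the lowest level of the 10. Tapbp, which bridges the peptide pump and MHC class I, had 457, 412 and 522 TPM in replicates 1, 2 and 3, a mean above that of 99.5% of detected protein-coding genes. Tapbpl, its homologue, had 8.83, 9.21 and 11.4 TPM and lay above 54.8% of them. In each library Tapbp was 44.7 to 51.7 times as high as Tapbpl, so the lowest Tapbp value was far above the highest Tapbpl value. Tap1 had 135, 125 and 167 TPM, and Tap2, its partner in the pump, had 62.8, 49.3 and 90.2 TPM. The 2 pump genes did not overlap, and Tap1 exceeded Tap2 by 1.10 ± 0.23 on the log2(TPM + 1) scale (SD, n = 3).

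Among the catalytic subunits, Psmb10 (trypsin-like site) had 83.4, 56.4 and 107 TPM. Psmb8 (chymotrypsin-like site) had 56.8, 35.3 and 56.8 TPM. Psmb9, which replaces the caspase-like subunit, had 29.8, 32.9 and 41.4 TPM. Psmb10 was above Psmb8 and Psmb9 in each library. Over the libraries, only the ranges of Psmb10 and Psmb9 were separate. The lowest Psmb10 value was below the highest Psmb8 values, and the lowest Psmb8 value was below the highest Psmb9 value. Psme2, the PA28 beta subunit, had 98.1, 89.7 and 126 TPM, and Psme1, the alpha subunit, had 49.9, 72.2 and 59.9 TPM. Every Psme2 value was above every Psme1 value. Erap1 had 23.2, 28.0 and 22.3 TPM, with replicate 2 the highest.

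**Figure D1:**
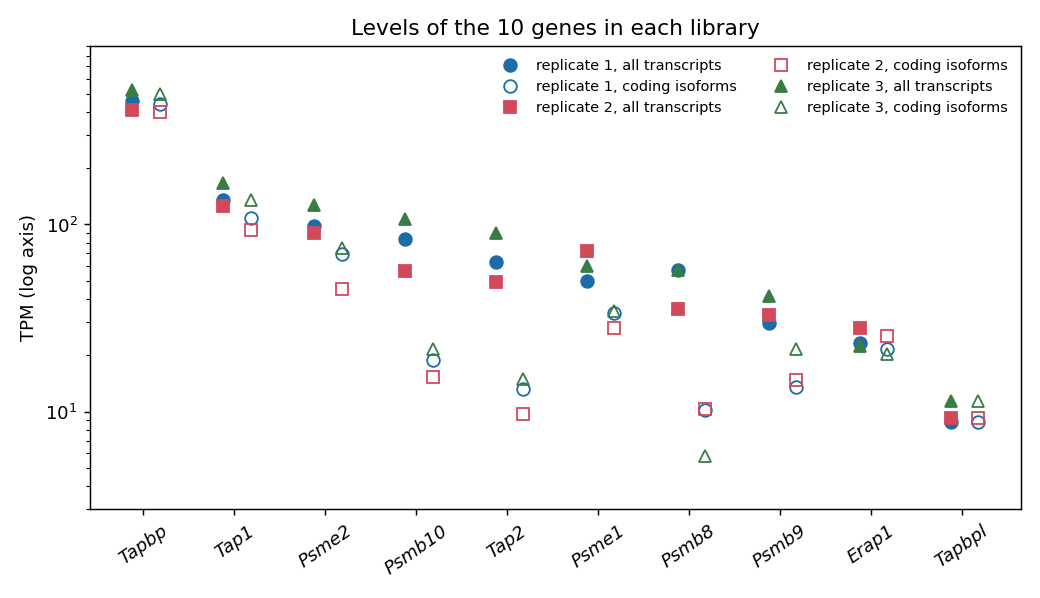
TPM on a log axis of the 10 genes in each of the 3 libraries, ordered by mean. Filled symbols count all transcripts of a gene and open symbols only the protein-coding isoforms. Tapbp stands highest and Tapbpl lowest by all transcripts, and the open symbols of Psmb8, Psmb10 and Tap2 hold on average 19.2%, 23.3% and 19.0% of the filled ones.

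Ordered by mean TPM, the genes ran Tapbp, Tap1, Psme2, Psmb10, Tap2, Psme1, Psmb8, Psmb9, Erap1 and Tapbpl. For 7 of the 9 neighbours in that order, the difference within a library had 1 sign in all 3 libraries and a mean above its SD. Tap2 and Psme1 (mean log2 difference 0.12 ± 0.59), and Psme1 and Psmb8 (0.30 ± 0.63), did not differ beyond their spread. The same order came from the kallisto-format values, where 5 of 9 neighbours met the rule.

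Each pair of related genes was compared within a library, as a difference of log2(TPM + 1), over 13 pairs. With 3 libraries the exact two-sided sign-flip test cannot go below p = 0.25. All 13 pairs reached that value, since each had 1 sign in 3 of 3 libraries, and none can pass 0.05 (Benjamini-Hochberg adjusted p = 0.25 for every pair). The sizes below are therefore given with their SD as descriptions.

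The 3 immunoproteasome subunits differed in how they stood against the subunit each replaces. Psmb10 exceeded Psmb7 by 2.25 ± 0.31 (log2, n = 3) and was 4.85, 4.09 and 6.22 times its TPM in replicates 1, 2 and 3. Psmb8 exceeded Psmb5 by 1.45 ± 0.39 and was 2.94, 2.10 and 3.66 times its TPM. Psmb9 lay on the other side: it was 0.784, 0.796 and 0.844 times Psmb6, a log2 difference of -0.30 ± 0.05. As a share of each pair's summed TPM, the immunoproteasome gene held 83.1 ± 2.90% for Psmb10, 73.6 ± 5.47% for Psmb8 and 44.7 ± 0.97% for Psmb9.

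Those ratios depended on which transcripts were counted. With protein-coding isoforms only, a setting chosen after the data were seen, Psmb8 was below Psmb5 in 3 of 3 libraries (log2 difference -0.93 ± 0.32) and held 33.3 ± 5.50% of the pair. The 2 annotated transcripts of Psmb5 are both protein-coding, so this setting could lower Psmb8 but not Psmb5. That change of sign therefore rests in part on which isoforms are annotated for each gene. Psmb10 stayed above Psmb7 in 3 of 3 libraries, by 0.43 ± 0.08 in place of 2.25, and Psmb9 stayed below Psmb6 at -0.60 ± 0.20. Of the 13 pairs, 12 still had 1 sign in all libraries. The exception was Psmb9 against Psmb10 at -0.16 ± 0.24, with replicate 3 just above 0. Psmb8 against Psmb9 changed sign, from 0.48 ± 0.41 to -0.87 ± 0.75. Without replicate 1 the former was 0.27, and by kallisto-format TPM it was 0.26 ± 0.29, above 0 in 2 of 3 libraries. By kallisto-format TPM Psmb9 against Psmb6 was -0.19 ± 0.09, below 0 in 3 of 3 libraries.

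The PA28 genes stood above Psme3, which encodes the PA28 gamma subunit of a separate nuclear activator. The log2 difference was 1.96 ± 0.30 for Psme1 and 2.74 ± 0.57 for Psme2, and -0.78 ± 0.41 for Psme1 against Psme2. Psme2 shares most of its transcript sequence with Psme2b, a copy on chromosome 11 from 48945354 to 48946190. The Psme2b transcript and Psme2-208, which is 962 bases long, were identical at 789 of 794 aligned bases (99.4%). Psme2b was given 45.9, 43.0 and 65.7 TPM. The split of reads between these genes is uncertain. Summing them, a setting chosen after the data were seen, moved Psme1 against Psme2 to -1.35 ± 0.42 and Psme2 against Psme3 to 3.31 ± 0.59. With coding isoforms only, Psme1 against Psme3 was 1.14 ± 0.50. Psme1 has 7 annotated retained-intron isoforms and Psme3 has 0, so that setting does not treat these genes alike.

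Tap1 and Psmb9 are neighbours transcribed away from each other, and Tap1 was the higher by 2.01 ± 0.13, or 3.81 to 4.54 times by TPM. Erap1 was below Lnpep, which encodes a related aminopeptidase of endosomes, at -1.09 ± 0.07 and 0.438 to 0.481 times its TPM. The kallisto-format difference of this pair was -0.69 ± 0.13. Tapbp against Tapbpl was the widest of the 13 differences at 5.42 ± 0.11. With coding isoforms only, Tap1 against Tap2 widened from 1.10 to 3.06 ± 0.10.

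**Figure D2:**
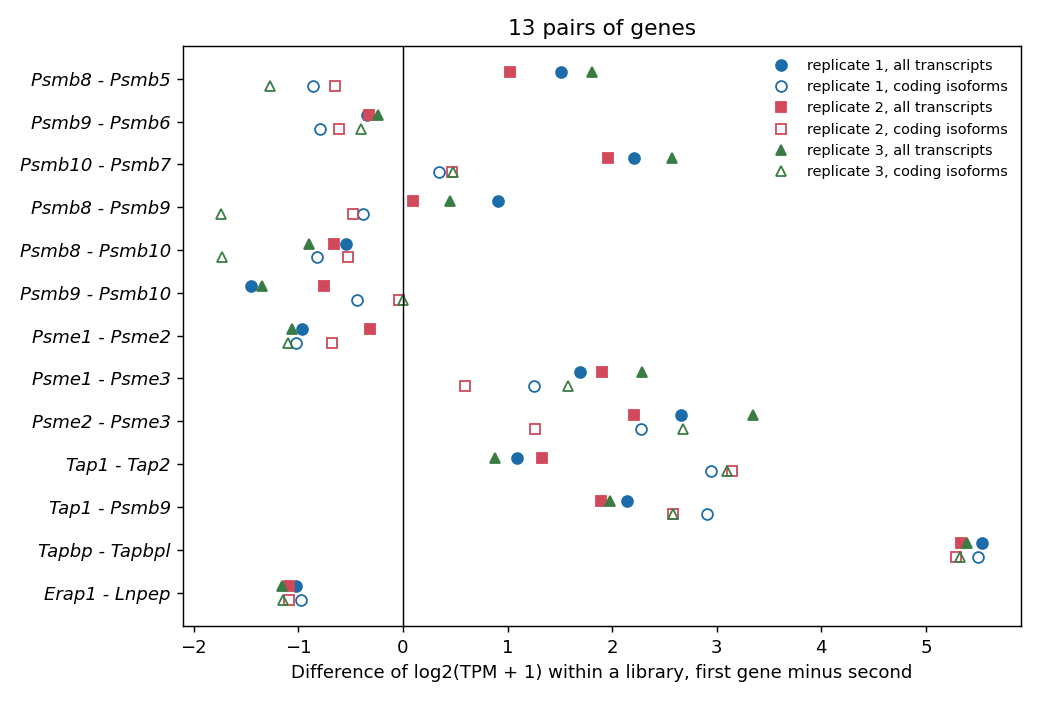
Differences of log2(TPM + 1) within each library for the 13 pairs, first gene minus second, with a line at 0. Filled symbols use all transcripts and open symbols only protein-coding isoforms; Psmb8 minus Psmb5 lies at 1.03 to 1.81 for all transcripts and at -1.28 to -0.65 for coding isoforms.

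For 3 of the genes, the transcript with the highest mean TPM was not protein-coding, namely for Psmb8, Tap2 and Psmb10. This was so for 11.4% of detected protein-coding genes. By kallisto-format TPM Psme2 joined these 3 (20.9% of detected protein-coding genes), and by expected counts, which are not divided by length, the genes were Psmb8, Tap2 and Psmb9 (9.46%), with the coding transcript leading Psmb10. A retained-intron isoform is annotated as holding intron sequence that the coding transcript removes. In nuclear RNA its reads cannot be told apart from those of transcripts still being spliced. Not every such isoform holds a whole intron of the main coding transcript. Among those that do not are Psmb9-205 (16.9 ± 1.70% of the gene's TPM), Psme2-207 (14.7 ± 11.1%) and Psme2-203 (10.7 ± 1.86%). A share of this class is therefore not a share of whole introns kept. Of the 9 members with such an isoform, Psmb8 and Tap2 had over 50% of TPM in this class, beside 12.8% of the 5980 detected protein-coding genes with one. The median share was 30.3 ± 5.68% over the 9 members and 23.9 ± 0.44% over the 5980 genes, and 5 of the 9 lay above the genes' median.

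For Psmb8, retained-intron isoforms held 82.1%, 70.7% and 89.8% of TPM in replicates 1, 2 and 3 (80.9 ± 9.58%, SD, n = 3). Most of it came from Psmb8-205, with 34.4, 19.0 and 39.1 TPM, which keeps intron 2 of 5, a stretch of 190 bases on chromosome 17 (mm10, forward strand) inside the coding part. Both protein-coding isoforms with reads were lower in each library. Psmb8-203 had 8.84, 9.39 and 3.75 TPM, and Psmb8-201 had 1.36, 0.93 and 2.07 TPM. Psmb8-206 has the same ends as Psmb8-205 but keeps intron 4 (440 bases), and it had 5.03, 0.54 and 4.23 TPM, below Psmb8-205 in each library. The share of TPM in transcripts that span an intron and keep it was 61.0 ± 7.48% for intron 2, 5.36 ± 0.91% for intron 3 and 15.3 ± 3.48% for intron 4.

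For Tap2, the retained-intron isoform Tap2-202 held 79.0%, 80.3% and 83.6% of TPM in replicates 1, 2 and 3, or 49.6, 39.6 and 75.4 TPM. It keeps intron 6 of 11, which is 162 bases long. The coding Tap2-201 had 12.9, 9.17 and 13.5 TPM, so the 2 isoforms did not overlap. The introns are shown because Psmb8-205 and Tap2-202 hold them and the coding transcripts do not, though the isoforms also differ at their ends. Lower case is the intron, and the 10 capitals at each end are the exon bases next to it, read 5′ to 3′ from the GENCODE M21 transcripts.
Psmb8 intron 2, chr17:34199381-34199570: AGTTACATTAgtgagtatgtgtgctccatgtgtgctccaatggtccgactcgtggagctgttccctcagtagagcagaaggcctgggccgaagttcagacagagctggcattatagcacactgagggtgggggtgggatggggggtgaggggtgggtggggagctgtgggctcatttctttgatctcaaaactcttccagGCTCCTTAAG
Tap2 intron 6, chr17:34212068-34212229: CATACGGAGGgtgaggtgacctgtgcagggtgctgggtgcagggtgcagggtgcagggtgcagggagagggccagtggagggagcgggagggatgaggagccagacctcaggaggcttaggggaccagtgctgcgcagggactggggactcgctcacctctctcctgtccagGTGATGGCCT

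Both introns begin with gt and end with ag. Read in the frame of the coding transcript, the Psmb8 intron has its first stop codon as codon 21 (tag), counted from the codon that holds its first base, and the Tap2 intron as codon 3 (tga). The length of the Tap2 intron is a multiple of 3 and that of the Psmb8 intron is not. Neither retained isoform differs from the coding ones by the intron alone. Psmb8-205 starts 580 bases downstream of the start of Psmb8-201, and it has 245 bases at its 3′ end that Psmb8-203 lacks. Tap2-202 starts 1040 bases downstream of Tap2-201. For neither gene does the annotation hold a fully spliced transcript with both ends within 50 bases of these isoforms, so reads that match a transcript with those ends could be assigned to the retained isoform without covering the intron. How much of each share rests on the intron and how much on the ends was not tested, because the tables hold no coverage by position.

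**Figure D3:**
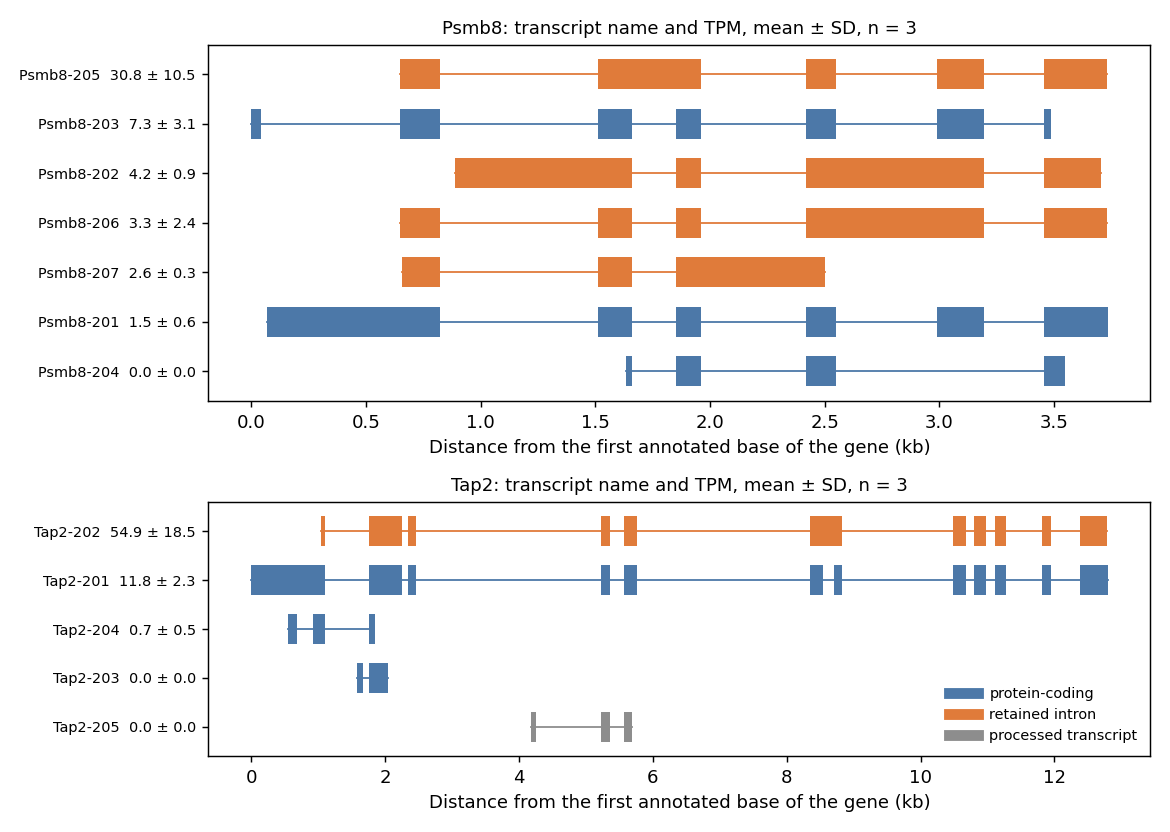
Annotated transcripts of Psmb8 (top) and Tap2 (bottom), drawn to scale by distance in kb from the gene's first base, with exons as boxes and the mean TPM ± SD (n = 3) beside each name. Psmb8-205 and Tap2-202, in orange, lead with 30.8 and 54.9 TPM and start downstream of Psmb8-201 and Tap2-201.

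Psmb10 differed in kind. Its highest transcript was Psmb10-203, a processed transcript of 426 bases over the 3′ part of the gene that has no annotated protein, with 50.5, 32.0 and 60.2 TPM. The single coding transcript, Psmb10-201 (1311 bases), had 18.8, 15.3 and 21.7 TPM, below Psmb10-203 in each library. By expected counts, the coding transcript held 53.2 ± 6.48% and the processed one 26.2 ± 2.32% of the gene.

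Psmb9 was divided between the coding Psmb9-204 (39.0 ± 0.77% of TPM) and several retained-intron isoforms (44.6 ± 1.80% together). The leading one, Psmb9-201, keeps introns 1 and 3 and had 8.23, 8.49 and 10.5 TPM against 11.7, 13.0 and 15.8 for Psmb9-204. Psmb9-204 was above Psmb9-201 in each library by TPM. By expected counts the order was the reverse in each library, with 801, 586 and 901 counts for Psmb9-201 against 484, 381 and 588 for Psmb9-204, and retained-intron isoforms held 60.3 ± 1.43% of Psmb9.

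In the peptide pump and loading genes other than Tap2, coding isoforms held most of the TPM: 78.6 ± 3.49% for Tap1, 96.4 ± 0.88% for Tapbp and 100% for Tapbpl, which has 1 annotated transcript. Tapbp-206 alone held 88.0 ± 0.61% and Tapbp-201 7.57 ± 1.13%. The 2 differ at the 5′ end and by 3 coding bases that only Tapbp-201 has (chr17:33926627-33926629). Tap1-206 held 52.1 ± 1.12% and Tap1-201, which lacks 84 of its coding bases (chr17:34192858-34192941), held 25.5 ± 2.58%. The kallisto-format share of Tap1-201 was 8.16 ± 3.09%. For Erap1, coding isoforms held 91.7 ± 1.34%.

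The isoforms of the PA28 genes differed between libraries and between tables. Psme1-209, a transcript of 439 bases annotated for nonsense-mediated decay and covering the 3′ part of Psme1, had 1.48, 34.3 and 3.49 TPM in replicates 1, 2 and 3. Replicate 2 thus stood apart, with 47.6% of Psme1 TPM in this isoform against 2.97% and 5.82%, and the kallisto-format table gave 32.8% against 0.520% and 2.81%. Psme1 had its highest TPM in replicate 2, while its expected counts there, 1035, were the lowest of the 3 (1526 and 1557 in replicates 1 and 3). The coding Psme1-208 had 33.7, 28.0 and 34.6 TPM. Psme2-201 had 24.7, 0 and 32.0 TPM, listed at 0 in replicate 2, where the kallisto-format table gave it 13.4% of the gene. The retained-intron share of Psme2 was 39.7 ± 10.3% by TPM, 75.2 ± 9.27% by kallisto-format TPM and 21.1 ± 5.32% by expected counts, so no level of it can be given for Psme2.

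**Figure D4:**
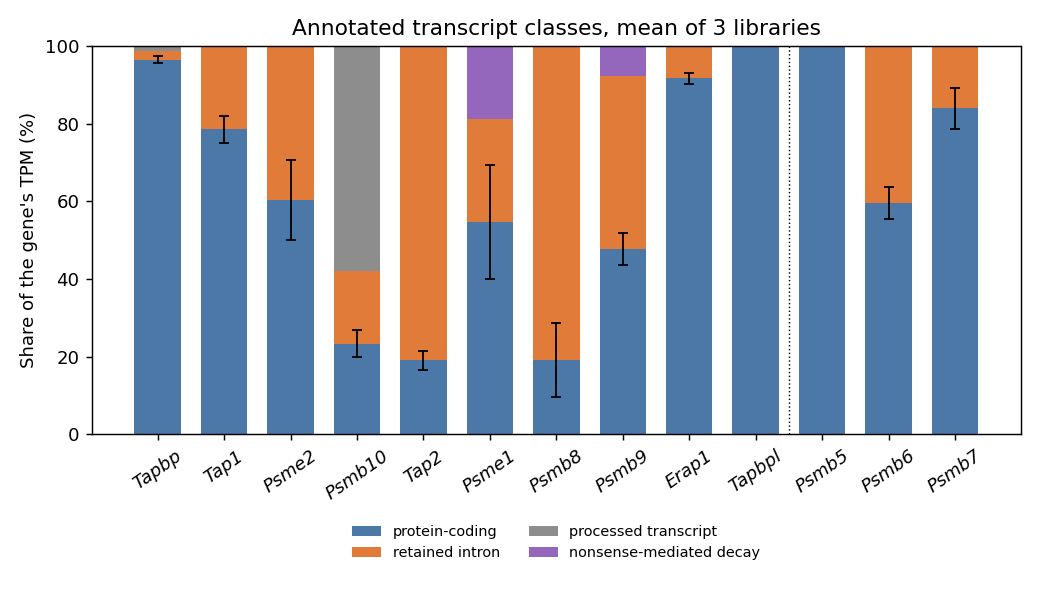
Share of each gene's TPM by annotated transcript class, mean of 3 libraries, with the SD (n = 3) of the protein-coding share as error bars; the dotted line sets off Psmb5, Psmb6 and Psmb7. Protein-coding shares run from 19.0% for Tap2 and 19.2% for Psmb8 to 100% for Tapbpl and Psmb5.

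With isoforms restricted to coding ones, the order of the genes became Tapbp (446 ± 49.7 TPM), Tap1 (112 ± 20.9), Psme2 (63.4 ± 15.9), Psme1 (32.1 ± 3.55), Erap1 (22.5 ± 2.58), Psmb10 (18.6 ± 3.21), Psmb9 (16.7 ± 4.37), Tap2 (12.6 ± 2.62), Tapbpl (9.82 ± 1.40) and Psmb8 (8.78 ± 2.56). Tapbp, Tap1 and Psme2 were the 3 genes with an unchanged rank. Psmb8 moved from the seventh place to the last, but with 10.2, 10.3 and 5.82 TPM against 8.83, 9.21 and 11.4 for Tapbpl it was below Tapbpl in replicate 3 and above it in the other libraries.

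Most of the genes moved in 1 direction between libraries when expected counts were scaled by TMM (trimmed mean of M-values, which sets library totals from genes common to all). By TMM-scaled CPM (counts-per-million), 9 of the 10 were lowest in replicate 2, beside 37.0% of detected protein-coding genes, and 9 were highest in replicate 3, beside 32.9%. Erap1 was the exception to both. Tap2 had 240, 160 and 342 CPM in replicates 1, 2 and 3, Psmb8 88.5, 44.5 and 95.8, and Psmb10 57.4, 36.8 and 80.7. Replicate 3 was 2.14, 2.15 and 2.19 times replicate 2 for these genes, the widest gaps of the 10, and 1.43 to 1.79 times for the other 6 that shared the pattern. Erap1 had 182, 170 and 164 CPM.

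By TPM, 6 of the 10 were lowest in replicate 2 and 8 highest in replicate 3, beside 16.4% and 19.0% of detected protein-coding genes. The median SD over libraries was 0.30 on the log2 TMM scale for the 10 genes (from 0.07 for Erap1 to 0.61 for Psmb8) and 0.19 for detected protein-coding genes, and 0.25 against 0.20 on the log2(TPM + 1) scale. By TMM-scaled CPM, 7 of 9 MHC class I genes were lowest in replicate 2 and 8 of 9 highest in replicate 3, and so were 10 and 12 of 16 regulators. On the same scale, Psmb5, Psmb6 and Psmb7 were lowest in replicate 2 in 3 of 3 cases, and 9 of 11 shared 20S subunits were, but only 1 of 3 and 2 of 11 were highest in replicate 3. Of 6 chaperones of peptide loading, 2 were lowest in replicate 2 and 0 highest in replicate 3. The same counts were 2 and 2 for 8 other peptidases and 2 and 1 for 5 assembly chaperones. They were 1 and 1 for the list of 3 other activators and inhibitor. Replicate 2 was also the library with the least RNA input and the fewest counts, and the part these play was not tested.

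**Figure D5:**
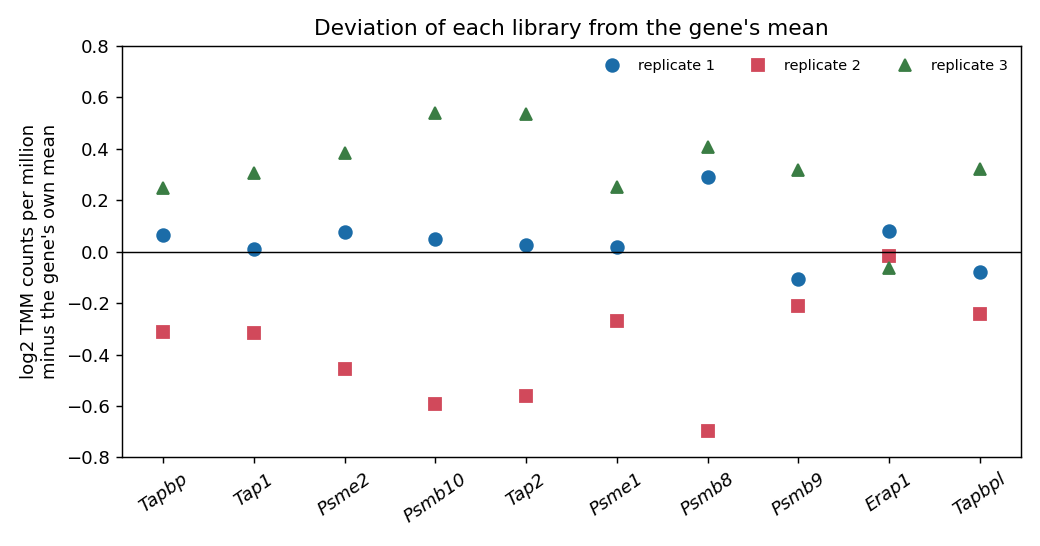
Log2 TMM-scaled CPM of the 10 genes in each library minus the gene's own mean over the 3 libraries. Replicate 2 lies below the other libraries for 9 genes, down to -0.70 for Psmb8, and Erap1 stays within -0.07 and 0.08.

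The other genes of the pathway, from lists of known function, gave the setting for these levels. The MHC class I heavy chains and B2m were detected in 9 of 9 cases, from H2-M3 at 32.2 ± 2.58 TPM to H2-K1 at 2358 ± 194 TPM. The 11 shared subunits of the 20S core were all detected, from Psma2 at 7.0 ± 0.43 to Psma3 at 35.3 ± 3.75 TPM, with a median log2(TPM + 1) of 4.29 ± 0.09. Among the immunoproteasome genes, counting all transcripts, Psmb8 and Psmb10 had mean TPM above that of Psma3 (49.6 ± 12.5 and 82.2 ± 25.3). Psmb9 was just below it at 34.7 ± 6.05. With coding isoforms only, Psmb8 (8.78 ± 2.56), Psmb10 (18.6 ± 3.21) and Psmb9 (16.7 ± 4.37) were all below the Psma3 mean over all transcripts. The coding-isoform level of Psma3 was not taken.

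Psme4, another activator, had 31.8 ± 2.35 TPM and the inhibitor Psmf1 3.78 ± 0.91. Of the assembly chaperones, Pomp, which is needed for new cores, had 18.9 ± 4.83 TPM and Psmg1 1.97 ± 0.45. The thymus-specific Psmb11 had 0 counts in every library, which allows up to 0.126 to 0.155 CPM (3 counts per library, counting error only), and the testis-specific Psma8 had 0.56 ± 0.09 TPM, below the threshold.

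All 6 chaperones of peptide loading were detected, from Uggt1 at 17.4 ± 2.09 to Calr (calreticulin) at 236 ± 48.4 TPM, and all 8 other peptidases, from Thop1 at 2.01 ± 0.31 to Lnpep at 53.3 ± 6.47 TPM. All 16 regulators were detected. Nlrc5, the transactivator of MHC class I and of several genes described here, had 101, 112 and 123 TPM. Irf1 had 71.6, 62.2 and 87.9 TPM and Irf8 31.1, 43.3 and 40.6 TPM. Rfxank, a subunit of the RFX complex on MHC promoters, was the lowest of the regulators at 2.09 ± 0.64 TPM.

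Of the 10 genes, 5 lie on chromosome 17, in or beside the MHC. Psmb9 (34181987 to 34187764, reverse strand), Tap1 (34187553 to 34197225), Psmb8 (34197721 to 34201454) and Tap2 (34203527 to 34216321, all forward) fill 34.3 kb. Tapbp (33915899 to 33929292, forward) is 252.7 kb away. Psme1 (55578123 to 55581529, forward) and Psme2 (55587441 to 55591113, reverse) are 5.91 kb apart on chromosome 14. Psmb10 is on chromosome 8 (105935735 to 105938444, reverse), Tapbpl on chromosome 6 (125223933 to 125231860, reverse) and Erap1 on chromosome 13 (74639568 to 74693201, forward).

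Some annotated exons overlap those of other genes, and no source used here states the strand used in counting, so reads in shared bases may be split. Tap1 and Psmb9 share 212 exon bases on opposite strands, 5.79% of those of Psmb9. The antisense gene Gm20496 shares 498 exon bases with Psmb8 but had at most 7.79 counts in a library, and Gm15821 shares 533 with Tap2 and had 40.2, 50.6 and 75.5 counts. Gm19412 shares 904 with Tapbp and had 47.6, 33.4 and 62.9 counts, against 39023, 24826 and 38414 for Tapbp. The protein-coding Zbtb22 shares 149 exon bases with Tapbp on the same strand, where strand could not separate reads. It had 788, 600 and 864 counts. Cast, on the strand opposite Erap1, shares 834 exon bases with it and had 1331, 1241 and 1095 counts against 4358, 3370 and 3417 for Erap1.

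RefSeq promoter windows (GRCm38.p6, 250 bases before to 50 after a start) were found for 8 of the 10 genes, those of Tap2 and Tapbpl not among them. The windows of Tap1 and Psmb9 share 275 bases, since their RefSeq starts lie 226 bases apart. They were searched on both strands for GAAANNGAA, the core of the interferon-stimulated response element, for TTCNNNGAA, the palindrome of the interferon-gamma activated site (GAS), and for the kappaB consensus. A match is only a description of letters. GAAANNGAA was found for Erap1 and Psme1 and is in 8.56% of 32851 windows, TTCNNNGAA was found for Psmb8 and is in 8.30%, and the kappaB consensus was found for 0 of the 8 and is in 4.51%. The GAAANNGAA and TTCNNNGAA motifs share the letters GAA and can overlap, though no window of the 8 genes held both. The matches are shown because they are the only ones among the 8 genes, with the matching bases in capitals, on the strand of the gene; those of Erap1 are 2 overlapping matches in reverse orientation, bases -9 to -1 and -3 to 6 around the start, and that of Psme1, also reversed, covers bases 11 to 19 after the start.
Erap1, chr13:74639836-74639865: ggtccaccTTCACTTTCACTTTCggtcccg
Psme1, chr14:55578493-55578522: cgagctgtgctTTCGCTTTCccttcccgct
Psmb8, chr17:34198087-34198116: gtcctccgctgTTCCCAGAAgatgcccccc
The Psmb8 match lies at bases -97 to -89 of the RefSeq start. That start (34198195) and the match lie within exon bases of the GENCODE transcript Psmb8-201 (34197790 to 34198369). The RefSeq start of Erap1 (74639853) is likewise downstream of the first base of Erap1-201 (74639568). That of Psmb9 (34187330, reverse strand) is downstream of the first base of Psmb9-204 (34187764).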

How the data were processed

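Members and lists were chosen with earlier results of these data known. Expected counts, TPM and FPKM per gene and transcript were computed and deposited by the authors on the mm10 build with the GENCODE M21 annotation. Per the file headers, their columns follow the RSEM layout; no source used here names the tool. A second deposited table of estimated counts and TPM has the columns of kallisto and was summed per gene. Symbols, classes and coordinates came from GENCODE M21, counted from 1. Levels were analysed as log2(TPM + 1), with detection at a TPM of 1 or more in every library. Rounded expected counts were scaled by TMM with edgeR 4.0.16 (filterByExpr kept 14350 genes), with DESeq2 1.42.0 size factors as an alternative, in R 4.3.3. Other steps ran in Python 3.11.15 with pandas 2.3.3 and matplotlib 3.10.9. Scaling, share and test code was checked on simulated data. Library totals were 23826101, 19312032 and 21730342 expected counts in replicates 1, 2 and 3. The deposited TPM comes with a lower and an upper bound, whose level is not stated, and these bounds were not used here. For Tapbp the TPM of 457, 412 and 522 lay above the upper bounds of 448, 400 and 512. The same held in each library for Tap1 (134.9, 125.5 and 166.6 against 133.5, 123.2 and 165.7) and for Lnpep. For the pairs, an exact sign-flip test (two-sided) was used. Named genes are the 10 members, the genes of the 13 pairs, the highest and lowest gene of each pathway list, and Nlrc5, Irf1 and Irf8, and 1 gene taken by the rule is not reported here; overlapping genes and Psme2b were named after their values were seen. Alternatives covered the quantification, scaling, unit, pseudocount, filters and each left-out replicate.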

Additional observations from a re-analysis of the deposited data

How the results depend on the processing

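Of the 119 alternative values of the 13 pairs, 117 kept their direction. Most of them could not have changed it, since each pair had 1 sign in all libraries. Rescaling within a library, FPKM, the smaller pseudocount and leaving out a replicate keep such a sign. Adding Psme2b to Psme2 could only widen its differences. The count is therefore not a measure of stability. Genes were paired within a library, and no pairing of libraries between conditions was possible because all form 1 group. Both reversals came from counting only coding isoforms, a setting chosen after the data were seen: Psmb8 minus Psmb5 became -0.93 and Psmb8 minus Psmb9 became -0.87. For the former pair that setting could lower only Psmb8, since every annotated Psmb5 transcript is protein-coding. All 10 genes were also detected at a TPM of 5 and by kallisto-format TPM, settings that 5919 and 5486 protein-coding genes passed in place of 9434. The median retained-intron share of the 9 members was 24.2% by expected counts, and that of the background 28.4% by kallisto-format TPM, 13.5% by expected counts and 23.1% with no filter on low values. With Psmb8 and Tap2, 1 more gene exceeded 50%, Psme2 by kallisto-format TPM and Psmb9 by expected counts. Without a filter, protein-coding genes had a median SD of 0.0785 on the log2(TPM + 1) scale. Leaving out a replicate left 6 to 8 neighbours in the order beyond their spread, and could not move any pair across 0. Transcript shares rest on the annotation's ends and introns, and depth limits minor isoforms, several of which are listed at 0.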
